A study of Mus musculus with 18 samples.

Results

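The genes described here are 7 regulators of the second heart field, the transcription factor genes Isl1, Tbx1, Foxc1 and Foxc2, the transcriptional coactivator gene Eya1 and the growth factor genes Fgf8 and Fgf10, picked by symbol from the 49315 gene identifiers of the count tables. All 7 were found and all 7 passed the filter on low counts. The source was dissected, untreated embryonic heart of wild-type mice on the C57BL/6 background, sequenced as RNA. E9.5 and E14.5 had 3 libraries each, and E10.5, E12.5 and E16.5 had 4 each, all labelled as pooled male and female material. The labels give neither the embryos per pool nor the litters. The spread behind each p-value is therefore that of these libraries and may be technical. In bulk hearts, fewer cells of a type and less RNA per cell cannot be told apart.

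The second heart field is a pool of mesodermal progenitors in the pharynx, behind the early heart tube, that adds muscle to both poles of the tube and builds the outflow tract and right ventricle. Isl1, a LIM homeodomain factor, marks these progenitors and later stays on in the sinoatrial node and in cardiac neurons. Fgf8 and Fgf10 are secreted ligands made in and around the field, Tbx1 is the T-box factor linked to DiGeorge syndrome, Eya1 acts with homeodomain factors such as Six4, and Foxc1 and Foxc2 are closely related forkhead factors of pharyngeal mesoderm, endothelium, neural crest and valves. Levels are given as CPM, counts normalized to TMM-scaled library sizes, and as RPKM where genes are compared with each other, since RPKM also divides by exon length. Fold changes are log2 values ± SE from 1 edgeR quasi-likelihood fit over all 18 libraries and 18885 genes, with Benjamini-Hochberg adjusted p over all of them and a threshold of 0.05.

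Of the 7 genes, 4 had a promoter in the RefSeq table used. Some of the 7 fell and 1 rose, so the start regions of 2 genes that fell (Isl1 and Fgf10) and of the one that rose (Foxc1) are shown for comparison. They are the 300-base RefSeq promoters (GRCm38.p6, 250 bases before to 50 after the start) of Isl1 at chr13:116309639-116309938 on the minus strand, Fgf10 at chr13:118714449-118714748 on the plus strand and Foxc1 at chr13:31806396-31806695 on the plus strand, each 5′ to 3′ along its gene, with capitals marking a motif match.
Isl1: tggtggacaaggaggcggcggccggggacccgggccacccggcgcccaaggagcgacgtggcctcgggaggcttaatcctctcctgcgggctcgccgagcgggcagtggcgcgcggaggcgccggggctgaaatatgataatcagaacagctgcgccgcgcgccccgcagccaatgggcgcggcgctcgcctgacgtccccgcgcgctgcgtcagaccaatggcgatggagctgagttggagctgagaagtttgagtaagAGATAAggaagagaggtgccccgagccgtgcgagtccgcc
Fgf10: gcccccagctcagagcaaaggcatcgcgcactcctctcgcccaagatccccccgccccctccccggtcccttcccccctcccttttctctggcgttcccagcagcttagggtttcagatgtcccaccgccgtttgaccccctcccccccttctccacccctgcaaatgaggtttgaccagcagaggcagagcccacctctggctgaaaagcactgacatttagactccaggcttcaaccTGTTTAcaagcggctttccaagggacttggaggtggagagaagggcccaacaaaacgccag
Foxc1: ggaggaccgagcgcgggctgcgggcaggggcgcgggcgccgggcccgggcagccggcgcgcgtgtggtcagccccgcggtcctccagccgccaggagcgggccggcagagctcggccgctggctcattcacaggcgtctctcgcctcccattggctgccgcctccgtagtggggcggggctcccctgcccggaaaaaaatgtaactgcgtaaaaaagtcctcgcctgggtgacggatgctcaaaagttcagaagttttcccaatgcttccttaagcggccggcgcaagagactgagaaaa
Both strands were searched for 6 short motifs, of which no match overlapped another here. The core bound by forkhead factors was searched as TAAACA, and the site bound by T-box factors as TCACACC. For Six4 and its relatives the letters were TCAGGTT, and for LIM homeodomain factors such as Isl1 they were TAATGG. The core for the zinc finger factor Gata4 and its relatives was searched as AGATAA, and the box that places the start of transcription as TATAAA. Isl1 held the Gata4-type core 11 bases after its start, and Fgf10 held the forkhead core on the opposite strand, read as TGTTTA, 11 bases before its start. Neither Foxc1 nor the 2 listed promoters of Tbx1 held any of the 6. Of all 32851 promoters in the table, 11.2% held the Gata4-type core and 13.4% the forkhead core, while the other shares were 3.98% for the T-box site, 4.07% for the Six4-type core, 7.73% for the LIM homeodomain core and 13.6% for the box at the start. The Isl1, Foxc1 and Fgf10 promoters had a GC content of 69.0%, 67.3% and 60.7% with 37, 32 and 10 CpG sites, against a median of 52.7% and 7 CpG sites over all promoters. The Fgf10 start of RefSeq lies inside the longer gene that the GENCODE M21 annotation gives. Such matches describe letters and not bound sites.

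A second sequence bears on how well Foxc1 and Foxc2 can be counted apart. Both genes are single exons, and the longest stretch their transcripts share is 53 bases of coding sequence, at positions 1014 to 1066 of the Foxc1 transcript and 862 to 914 of the Foxc2 transcript.
Foxc1 and Foxc2 shared stretch: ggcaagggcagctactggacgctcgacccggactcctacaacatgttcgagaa
Of the windows of 50 bases in each transcript, 4 of 5795 in Foxc1 and 4 of 2676 in Foxc2 occur in the other gene, which is 0.069% and 0.149% of them. The other 5 genes shared no such window with another gene, except Fgf10 with 63 of 4624. In GRCm38 the genes are Fgf8 (ENSMUSG00000025219, chromosome 19, 45736798 to 45742915), Fgf10 (ENSMUSG00000021732, chromosome 13, 118669791 to 118792115), Isl1 (ENSMUSG00000042258, chromosome 13, 116298281 to 116309689), Tbx1 (ENSMUSG00000009097, chromosome 16, 18580979 to 18590671), Eya1 (ENSMUSG00000025932, chromosome 1, 14168954 to 14310235), Foxc1 (ENSMUSG00000050295, chromosome 13, 31806633 to 31812476) and Foxc2 (ENSMUSG00000046714, chromosome 8, 121116171 to 121118895). All are protein-coding. Fgf10 alone shares exon bases with another gene, the opposite-strand Gm16263, over 2.67% of its exon length, and Gm16263 had 0 to 2 counts in a library.

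Depth per library was 30744015 to 45646538 counts. At that depth a gene without any count could have a level of up to 0.0663 to 0.0996 CPM, the floor of 3 counts, which covers counting error only. Cardiomyocyte genes were abundant at every stage, and the 14 listed summed to 29084 to 51449 CPM. In 5 libraries (E9.5 replicates 2 and 3, E10.5 replicates 1 and 2, and E12.5 replicate 4) 8 transcripts of activated macrophages and dendritic cells summed to 0.582 to 2.75 CPM, against 341 to 689 CPM in the other 13. Stage and this split overlap in part, so values within the 13 libraries stand beside each result of the 7 genes whose call or direction they change. In that fit E9.5 has 1 library and is assumed to vary like the other stages. For genes of the lists, calls within the 13 libraries are not given, so their calls stand for all 18 libraries only. With stage as a term, none of the 7 genes differed between the 5 libraries and the other 13 at the threshold (edgeR), against 21.8% of all genes tested. Foxc1 came nearest, at a log2 difference of -0.27 ± 0.0993 (adjusted p = 0.0547), and was the 1 gene of the 7 with an unadjusted p under 0.05 (0.0124).

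Per exon length, Foxc2 was the most abundant of the 7 at E9.5 with 10.8 ± 0.604 RPKM (SD, n = 3). Fgf8 followed at 4.12 ± 1.35, Isl1 at 2.75 ± 0.447, Fgf10 at 2.37 ± 0.682 and Foxc1 at 1.41 ± 0.463 RPKM, and the ranges of mean ± SD of Fgf8, Isl1 and Fgf10 overlapped, as did those of Fgf10 and Foxc1. Eya1 at 0.233 ± 0.0549 RPKM and Tbx1 at 0.199 ± 0.0782 RPKM lay lowest. By E16.5 (n = 4) Foxc2 at 5.92 ± 0.437 RPKM and Foxc1 at 4.21 ± 0.286 RPKM stood far above the others, which all lay between 0.134 ± 0.0462 RPKM for Fgf10 and 0.391 ± 0.146 RPKM for Isl1.

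**Figure D1:**
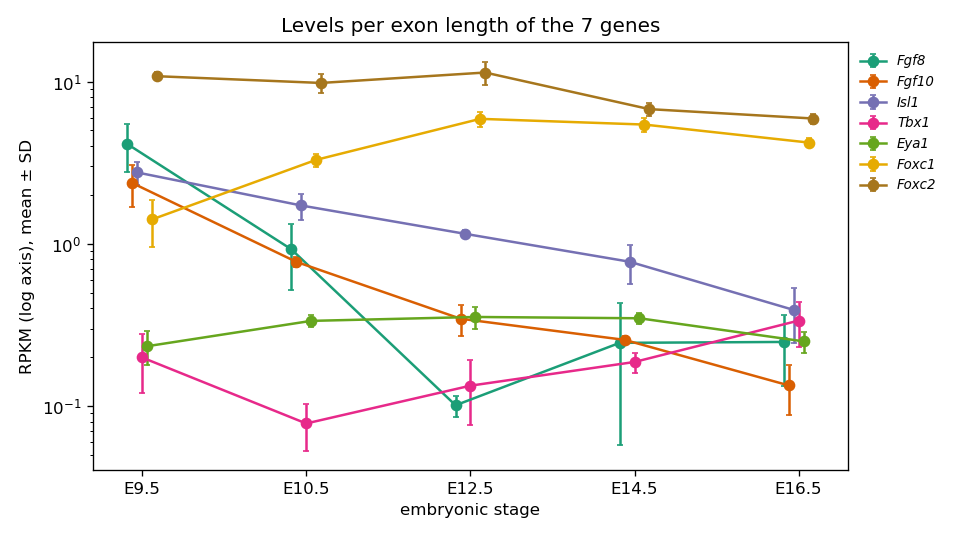
Mean level of each of the 7 genes per exon length (RPKM, log axis, error bars SD, 3 or 4 libraries a stage) over the 5 stages, E9.5 to E16.5 from left to right. Fgf8, Fgf10 and Isl1 lie at 0.248, 0.134 and 0.391 RPKM at E16.5, against 4.12, 2.37 and 2.75 RPKM at E9.5, while Foxc1 reaches 5.89 RPKM at E12.5.

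Fgf8 is a ligand needed in the mouse for the outflow tract to form. Its libraries held 131, 160 and 227 counts at E9.5, 33, 43, 76 and 46 counts at E10.5, 5, 6, 5 and 5 counts at E12.5, 8, 8 and 20 counts at E14.5 and 5, 16, 8 and 14 counts at E16.5. This was 3.96, 5.19 and 7.54 CPM at E9.5, 0.729, 1.03, 2.01 and 1.21 CPM at E10.5, 0.137, 0.162, 0.114 and 0.132 CPM at E12.5, 0.190, 0.179 and 0.623 CPM at E14.5 and 0.160, 0.476, 0.247 and 0.456 CPM at E16.5. The E9.5 libraries lay above every later library, the E10.5 libraries above every library of E12.5 and later, and the last 3 stages close to the floor. Fgf8 fell at E10.5 against E9.5 (log2 fold change -2.16 ± 0.374, edgeR adjusted p = 0.000382) and again at E12.5 against E10.5 (-3.16 ± 0.447, edgeR adjusted p = 1.70e-05). The second step, 8.96-fold lower, was the 14th largest fall of the 18885 genes tested. The first was -1.29 (adjusted p = 0.154) within the 13 libraries and -2.83 (adjusted p = 5.35e-06) within the 5, a fall in both that did not pass in the 13. From E12.5 on no step of Fgf8 passed. The E14.5 libraries lay above all E12.5 libraries, on at most 20 counts in a library, and that difference (1.21 ± 0.524, edgeR adjusted p = 0.138) did not pass. The CV at E14.5 was 76.6%, against 28.9% from counting alone.

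Fgf10, the ligand expressed across the anterior part of the field, fell in smaller and more numerous steps. Its levels were 8.48, 9.77 and 14.4 CPM at E9.5, 3.87, 3.34, 3.60 and 3.41 CPM at E10.5, 1.12, 1.95, 1.61 and 1.66 CPM at E12.5, 1.14, 1.14 and 1.25 CPM at E14.5 and 0.608, 0.417, 0.524 and 0.912 CPM at E16.5. Libraries overlapped only between E12.5 and E14.5. The falls passed at E10.5 against E9.5 (-1.61 ± 0.215, edgeR adjusted p = 2.58e-05), at E12.5 against E10.5 (-1.16 ± 0.210, edgeR adjusted p = 0.000219) and at E16.5 against E14.5 (-0.93 ± 0.251, edgeR adjusted p = 0.0132). With limma-voom the last was -0.97 at an adjusted p of 0.0643. Within the 13 libraries the first fall was -1.27 (adjusted p = 0.0234). Fgf10 at E16.5 was 17.7-fold lower than at E9.5 (-4.14 ± 0.245, edgeR adjusted p = 1.82e-11), and Fgf8 16.4-fold lower (-4.04 ± 0.422, edgeR adjusted p = 7.05e-08), so the 2 ligands ended with log2 falls within 1 SE of each other.

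Between those ends the ratio of the ligands varied. Per exon length, Fgf10 over Fgf8 within a library was 0.552 to 0.629 in E9.5 libraries, 0.525 to 1.56 in E10.5 libraries, 2.41 to 4.17 in E12.5 libraries, 0.587 to 1.87 in E14.5 libraries and 0.257 to 1.11 in E16.5 libraries. E12.5 was the stage where all 4 libraries stood above those of the others, on 5 to 6 Fgf8 counts a library. Counting alone gave Fgf8 a CV of 43.6% at that stage, so a few counts set these ratios. This ratio, like that of Foxc2 over Foxc1, was chosen after its values were seen and is given without a test.

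Isl1 was lower at each stage than at the stage before, and 3 of the 4 steps passed. Its levels were 9.66, 10.1 and 12.9 CPM at E9.5, 7.91, 5.72, 7.87 and 5.74 CPM at E10.5, 4.74, 4.24, 4.47 and 4.75 CPM at E12.5, 2.80, 4.004 and 2.40 CPM at E14.5 and 1.70, 0.833, 2.22 and 1.43 CPM at E16.5. No library of a stage reached the lowest library of the stage before, in any of the 4 steps. The falls passed at E10.5 against E9.5 (-0.68 ± 0.225, edgeR adjusted p = 0.0421), E12.5 against E10.5 (-0.58 ± 0.212, edgeR adjusted p = 0.0367) and E16.5 against E14.5 (-0.99 ± 0.243, edgeR adjusted p = 0.00702), and did not at E14.5 against E12.5 (-0.56 ± 0.235, edgeR adjusted p = 0.120). The first 2 calls lay close to the threshold and ended within the 13 libraries, at -0.50 (adjusted p = 0.453) and -0.60 (adjusted p = 0.106). The first also ended without E9.5 replicate 2 or 3, E10.5 replicate 2 or 4, E12.5 replicate 1 or 2 or E16.5 replicate 1 (adjusted p = 0.0510 to 0.190), and the second without E10.5 replicate 1 or 3 or any 1 of the 4 E12.5 libraries (adjusted p = 0.0511 to 0.105). Without E14.5 replicate 2 the last was -0.75 (adjusted p = 0.0710). Over the whole span Isl1 was 7.04-fold lower at E16.5 than at E9.5 (-2.82 ± 0.241, edgeR adjusted p = 4.12e-09), and within the 13 libraries the fall was -2.64 (adjusted p = 1.53e-06).

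**Figure D2:**
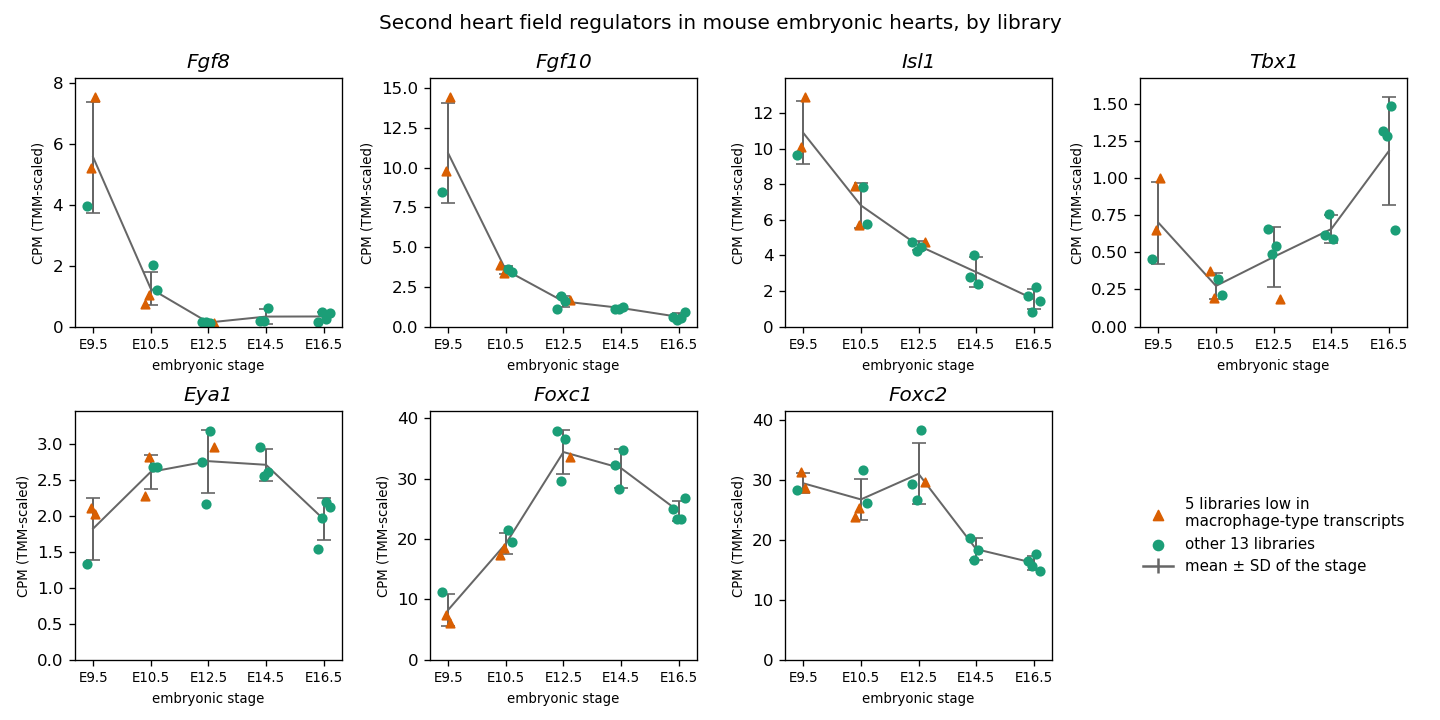
Level of each gene (CPM, linear axis from 0) in every library at E9.5 to E16.5, with the line and bars giving the stage mean ± SD, triangles the 5 libraries low in macrophage-type transcripts and circles the other 13. Fgf8 drops to 0.114 to 0.162 CPM at E12.5, Isl1 is lower at each stage than at the one before and Foxc1 climbs to 29.6 to 37.95 CPM at E12.5.

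Tissues that keep Isl1 were followed by their markers. At E16.5 Shox2, a factor of the sinoatrial node, had 15.1, 3.75, 21.8 and 16.3 CPM in replicates 1 to 4, and its channel gene Hcn4 had 41.2, 28.2, 55.9 and 46.5 CPM. Isl1 was likewise lowest in replicate 2 (0.833 CPM) and highest in replicate 3 (2.22 CPM). Tbx3 was also highest in replicate 3 (18.1 CPM) but lowest in replicate 4 (12.51 CPM), and at E9.5 Shox2 was lowest in replicate 3 (25.5 CPM), where Isl1 was highest, so the orders did not match throughout. All 10 listed sinoatrial genes were detected at each stage, and their summed level was 648 to 989 CPM at E9.5, 590 to 701 CPM at E10.5, 415 to 520 CPM at E12.5, 323 to 392 CPM at E14.5 and 231 to 351 CPM at E16.5. Of these 10, 6 fell and 2 rose at E16.5 against E9.5 (median -1.16, against -0.0052 over all genes tested, of which 32.8% fell and 32.1% rose), among them Tbx3, which keeps node cells from becoming working muscle, at 14.4 ± 2.56 CPM at E16.5 and 41.3 ± 4.96 CPM at E9.5 (edgeR adjusted p = 4.59e-09). The part of such tissue in the Isl1 values was not tested.

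Per exon length, Tbx1 had the lowest mean of the 7 at E9.5, where it overlapped Eya1, and at E10.5, where each library held less of it than of Eya1. Its libraries held 15, 20 and 30 counts at E9.5, 17, 8, 12 and 8 counts at E10.5, 24, 18, 24 and 7 counts at E12.5, 26, 34 and 19 counts at E14.5 and 41, 43, 48 and 20 counts at E16.5. In CPM, E9.5 averaged 0.699 ± 0.275 (SD, n = 3), E10.5 0.274 ± 0.0876 (n = 4), E12.5 0.469 ± 0.202 (n = 4), E14.5 0.656 ± 0.0913 (n = 3) and E16.5 1.18 ± 0.364 (n = 4), a dip at E10.5 with higher values after it. The E10.5 libraries lay below all E9.5 libraries, and the fall passed (-1.33 ± 0.403, edgeR adjusted p = 0.0265) but was -0.77 (adjusted p = 0.494) within the 13 libraries, -0.99 (adjusted p = 0.174) without E9.5 replicate 3, -1.19 (adjusted p = 0.0795) without E10.5 replicate 2 and -1.23 (adjusted p = 0.0646) without E10.5 replicate 4. No later step passed with all libraries and stage as the only term. The one at E12.5 against E10.5 (0.76 ± 0.383, edgeR adjusted p = 0.127) passed without E12.5 replicate 4 (1.02, adjusted p = 0.0293). With the replicate number as a block, E16.5 passed as a rise against E14.5 (1.02, edgeR adjusted p = 0.0372) and against E9.5 (0.97, edgeR adjusted p = 0.0154). The difference of E16.5 and E9.5 (0.76 ± 0.377, edgeR adjusted p = 0.0847) passed as a rise within the 13 libraries (1.38, adjusted p = 0.0271), without E9.5 replicate 3 (1.10, adjusted p = 0.0358) and without E16.5 replicate 4 (0.97, adjusted p = 0.0309).

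Muscle of the pharyngeal arches and the great arteries, which derive in part from tissue that expresses Tbx1, were followed by 8 and 11 listed markers. The arch muscle list summed to 12.2 to 26.8 CPM at E9.5, 57.9 to 66.3 CPM at E10.5, 63.1 to 74.5 CPM at E12.5, 71.8 to 82.4 CPM at E14.5 and 65.4 to 81.4 CPM at E16.5. Of the 8 genes, 6 averaged under 1 CPM at E9.5 and 5 at E10.5, so few genes made up the sum. The list includes Tcf21, also on the epicardial list, which rose at E16.5 against E9.5 (1.93 ± 0.193, edgeR adjusted p = 1.42e-07). Of its 5 tested genes, 3 rose and 1 fell at E16.5 against E9.5, beside 64.9% of all genes called in either direction. Msc, a pharyngeal muscle gene, was at 0 in all 4 E10.5 libraries and at 2.31 to 3.78 CPM at E16.5. Myog, a gene of differentiating skeletal muscle, had 13 to 24 counts a library at E16.5 and 0 in all 3 at E9.5. Myf5 and Myod1, which define skeletal muscle precursors, were at 0 in every library of E10.5, E12.5 and E16.5 and reached 5 and 6 counts in a library at E14.5. The great artery and smooth muscle list summed to 3788 to 4619 CPM at E9.5, 2277 to 2580 CPM at E10.5, 2211 to 2385 CPM at E12.5, 2586 to 3117 CPM at E14.5 and 2595 to 3716 CPM at E16.5. Its genes did not move together. Of the 11, 6 rose and 4 fell at E16.5 against E9.5, beside 64.9% of all genes called. Acta2 and Tagln were among those that fell (-1.75 and -3.08). Eln was among those that rose, with 4.91 to 7.79 CPM at E9.5 and 990 to 2210 CPM at E16.5. The part of such tissue in the Tbx1 levels was not tested.

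Eya1, a phosphatase and coactivator of Six4 and its relatives, had levels between 1.33 and 3.18 CPM in all 18 libraries. Its levels were 1.33, 2.11 and 2.03 CPM at E9.5, 2.28, 2.81, 2.68 and 2.68 CPM at E10.5, 2.74, 2.16, 3.18 and 2.96 CPM at E12.5, 2.96, 2.55 and 2.62 CPM at E14.5 and 1.54, 1.96, 2.19 and 2.12 CPM at E16.5. All E10.5 libraries lay above all E9.5 libraries and all E16.5 libraries below all E14.5 libraries, but neither the first (0.52 ± 0.198, edgeR adjusted p = 0.0762) nor the last step (-0.47 ± 0.194, edgeR adjusted p = 0.0977) passed, and the 3 middle stages overlapped. The first step was 1.01 (adjusted p = 0.0742) within the 13 libraries and 0.56 (adjusted p = 0.0415) with a term for the 2 sets of libraries. E16.5 and E9.5 differed by 0.10 ± 0.199 (edgeR adjusted p = 0.672), and by 0.56 (adjusted p = 0.136) within the 13 libraries.

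Foxc1 rose while the ligands fell. Its levels were 11.3, 7.43 and 6.04 CPM at E9.5, 17.4, 18.5, 21.5 and 19.4 CPM at E10.5, 37.95, 29.6, 36.5 and 33.6 CPM at E12.5, 32.3, 28.2 and 34.7 CPM at E14.5 and 25.01, 23.2, 23.3 and 26.8 CPM at E16.5. E9.5, E10.5 and E12.5 formed 3 separate ranges, and E14.5 overlapped E12.5. It rose at E10.5 against E9.5 (1.22 ± 0.154, edgeR adjusted p = 1.67e-05, 2.32-fold) and at E12.5 against E10.5 (0.84 ± 0.133, edgeR adjusted p = 6.63e-05, 1.79-fold). Every E16.5 library lay below every E14.5 library, a step of -0.37 ± 0.143 (edgeR adjusted p = 0.0808) that passed within the 13 libraries (-0.37, adjusted p = 0.0101) with limma-voom (-0.36, adjusted p = 0.0435), and without E9.5 replicate 1 (adjusted p = 0.0118) or 3 (adjusted p = 0.0368). E16.5 was 2.97-fold above E9.5 (1.57 ± 0.155, edgeR adjusted p = 4.05e-08), and 1.13 within the 13 libraries (adjusted p = 8.64e-06), where the 1 E9.5 library, replicate 1, held the most Foxc1 of that stage.

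Foxc2 passed in no step among the first 3 stages and was lower after them. It had 28.2, 31.3 and 28.7 CPM at E9.5, 23.8, 25.3, 31.7 and 26.1 CPM at E10.5, 29.3, 26.7, 38.3 and 29.6 CPM at E12.5, 20.3, 16.7 and 18.3 CPM at E14.5 and 16.49, 15.7, 17.6 and 14.8 CPM at E16.5. The libraries of E9.5, E10.5 and E12.5 overlapped, and so did those of E14.5 and E16.5, with no overlap between the 2 sets. Foxc2 fell at E14.5 against E12.5 (-0.75 ± 0.118, edgeR adjusted p = 0.000206) and at E16.5 against E9.5 (-0.87 ± 0.116, edgeR adjusted p = 2.03e-06). The other steps did not pass, although the second did without E10.5 replicate 3 (0.31, adjusted p = 0.0308). Within the 5 libraries the first step passed (-0.26, edgeR adjusted p = 0.0209). The second was 0.27 there, given as a size without a call, since E12.5 then had only replicate 4. Within the 13, with only replicate 1 at E9.5, the first was 0.037. With all libraries the steps that did not pass were -0.14 ± 0.115 (E10.5 against E9.5, edgeR adjusted p = 0.465), 0.21 ± 0.106 (E12.5 against E10.5, adjusted p = 0.121) and -0.19 ± 0.117 (E16.5 against E14.5, adjusted p = 0.278).

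Foxc1 and Foxc2 lay closer to each other at later stages. Foxc2 over Foxc1 per exon length was 5.38 to 10.2 in E9.5 libraries, 2.88 to 3.16 in E10.5 libraries, 1.65 to 2.25 in E12.5 libraries, 1.13 to 1.35 in E14.5 libraries and 1.18 to 1.61 in E16.5 libraries. The ranges of the first 4 stages did not overlap, and the last overlapped E14.5. Endocardial and valve markers, 11 genes of a tissue where both are expressed, summed to 911 to 962 CPM at E9.5, 1124 to 1175 CPM at E10.5, 1454 to 1688 CPM at E12.5, 1400 to 1650 CPM at E14.5 and 1416 to 1680 CPM at E16.5. Of these 11, 5 rose and 1 fell at E10.5 against E9.5 (10.6% and 7.62% of all genes). At E12.5 against E10.5, 5 rose and 2 fell (20% and 18.1%), and at E14.5 against E12.5 none rose and 7 fell (6.29% and 8.56%). At E16.5 against E9.5, 4 rose and 5 fell, beside 32.1% and 32.8% of all genes. Msx1 had the lowest adjusted p of those that fell there (-2.16 ± 0.139, edgeR adjusted p = 6.26e-11). Postn and Cdh11, matrix and adhesion genes of valve mesenchyme, made up most of the higher sum, with 384 ± 84.3 and 242 ± 21.4 CPM at E12.5, against 12.4 ± 6.68 and 34.6 ± 6.40 CPM at E9.5. Epicardial markers moved in the first step as well, with 614 to 722 CPM at E10.5 and 327 to 373 CPM at E9.5, and 10 of 12 rose and 2 fell. The part of either tissue in the Foxc1 levels was not tested.

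**Figure D3:**
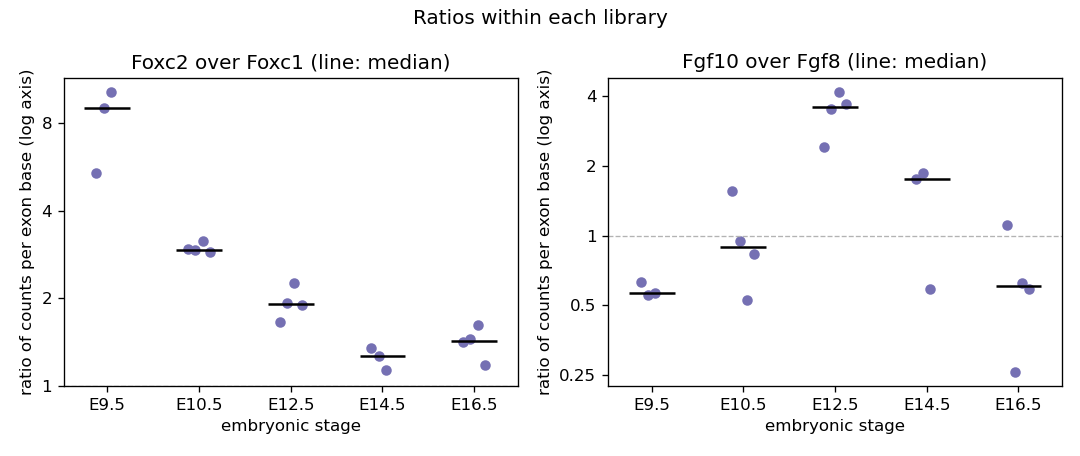
Ratio of counts per exon base within each library (log axes) for Foxc2 over Foxc1 and Fgf10 over Fgf8 at E9.5 to E16.5, with a line at each stage median and a dashed line at 1 where it is in range. The forkhead ratio has a median of 1.43 at E16.5 and 9.03 at E9.5. The ligand ratio has a median of 3.61 at E12.5, above those of the other stages, on 5 to 6 Fgf8 counts a library.

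Neighbours of the forkhead genes were much scarcer. Foxq1 and Foxf2 lie beside Foxc1, and Foxf1, Foxl1 and the long RNA Fendrr beside Foxc2, and the 5 together summed to 1.89 to 4.41 CPM over all libraries. Foxf1, a factor of splanchnic mesoderm, fell at E12.5 against E10.5, with 0.262 ± 0.106 CPM at E12.5 and 0.973 ± 0.191 CPM at E10.5 (-1.88 ± 0.356, edgeR adjusted p = 0.000355), as did Fendrr (-2.40 ± 0.695, edgeR adjusted p = 0.0100) with 1 to 3 counts a library at E12.5 and 2 to 19 at E10.5, while Foxq1 rose in that step (1.68 ± 0.461, edgeR adjusted p = 0.00708). Foxl1 fell at E14.5 against E12.5 (-0.81 ± 0.264, edgeR adjusted p = 0.0444), the same step as Foxc2. Foxf2 passed only at E16.5 against E9.5 (-1.58 ± 0.647, edgeR adjusted p = 0.0394), on 1 to 5 counts a library at E16.5 and 4 to 16 at E9.5, with libraries that overlapped and a value of -0.042 within the 13 libraries.

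Counted by step, 5 of the 7 genes passed at E10.5 against E9.5, 4 lower and 1 higher, where 18.2% of all genes passed (7.62% lower and 10.6% higher). At E12.5 against E10.5 it was 4 of 7, 3 lower and 1 higher, beside 38% of all genes (18.1% lower and 20% higher). Foxc2 was the single gene of the 7 that passed at E14.5 against E12.5, where 14.8% of all genes did (8.56% lower and 6.29% higher), and Fgf10 and Isl1 were the 2 at E16.5 against E14.5, where 18.9% did (8.74% lower and 10.1% higher). At E16.5 against E9.5 the count was 5 of 7, 4 lower and 1 higher, near the 64.9% of all genes (32.8% lower and 32.1% higher). With library totals in place of TMM, the median of all genes at E16.5 against E14.5 moved to -0.15, against -0.024 with TMM, and 5 of the 7 passed there. The share of higher genes among all called was then 24.4%, against 53.6% with TMM, and at E14.5 against E12.5 it was 62.5%, against 42.3% with TMM. Neighbouring steps share the libraries of the stage between them, and within the 13 libraries 2 of the 7, Fgf10 and Foxc1, passed in the first step.

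**Figure D4:**
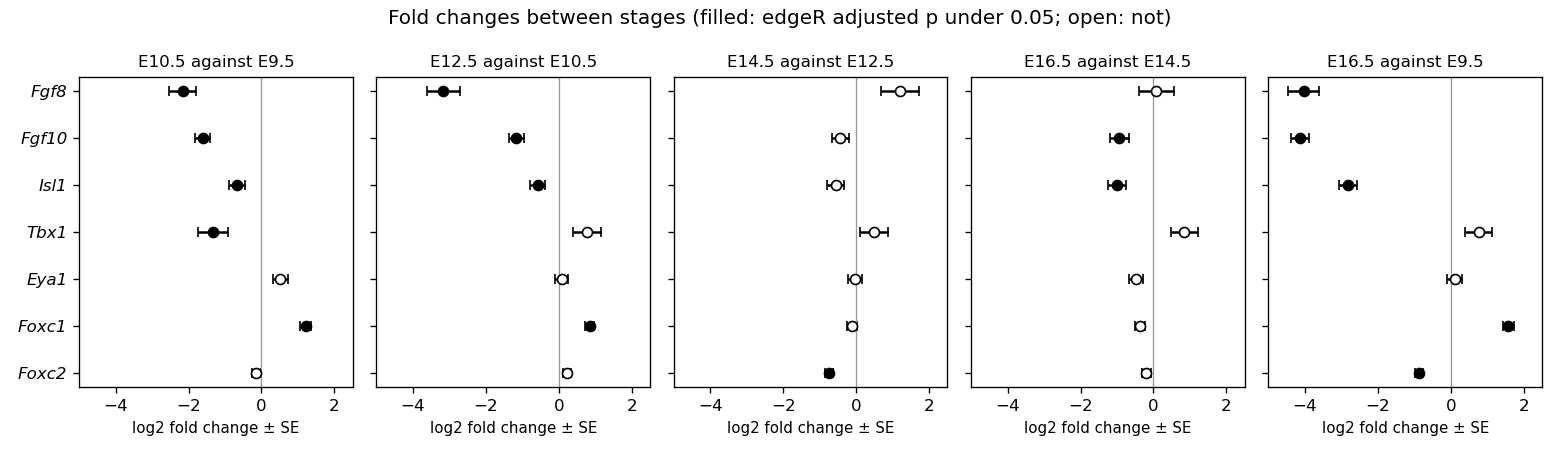
Log2 fold change ± SE of each of the 7 genes in 5 comparisons, the later stage over the earlier one, with filled points past an edgeR adjusted p of 0.05. The largest falls are those of Fgf8 and Fgf10 at E16.5 against E9.5, at -4.04 and -4.14, and Foxc1 is the gene with filled points to the right of 0.

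The E9.5 libraries differed among themselves in a shared way. Replicate 3 held the most Fgf8, Fgf10, Isl1 and Tbx1 and the least Foxc1 of that stage, and replicate 1 the least and the most of the same genes. Replicates 2 and 3 are among the 5 libraries low in macrophage-type transcripts and replicate 1 is not. How replicate 1 differs from them therefore cannot be told apart from that split. Fgf8 varied by 32.7% (CV) at E9.5, against 7.61% from counting alone, and Foxc1 by 32.8% against 6.19%. Without replicate 3, Fgf8 still fell at E10.5 against E9.5 (-1.88, adjusted p = 0.00411), as did Fgf10 (-1.36, adjusted p = 0.000392), and Foxc1 rose (1.04, adjusted p = 9.51e-05), while Isl1 (-0.53, adjusted p = 0.190) did not pass. The genes listed for pharyngeal and foregut endoderm summed to 77.1 CPM in replicate 2 and to 19.1 and 21.5 CPM in replicates 1 and 3. Most of that was Afp, with 1397 counts in replicate 2 and 7 and 13 in replicates 1 and 3, and Epcam (88, 6 and 10 counts), Foxa2 (29, 4 and 4) and Ttr (144, 14 and 13) were higher there as well. Pax1 and Gcm2, which define the pharyngeal pouches, had at most 2 counts in an E9.5 library. Without replicate 2 the first fall of Fgf8 was -2.21 (adjusted p = 0.00114). Markers of arch mesenchyme summed to 160 to 175 CPM at E9.5, 107 to 162 CPM at E10.5, 130 to 173 CPM at E12.5, 103 to 118 CPM at E14.5 and 78.3 to 93.4 CPM at E16.5, with Gsc at no more than 2 counts in an E9.5 library, and 6 of 12 fell and 4 rose at E16.5 against E9.5, where 64.9% of all genes were called. The part of attached tissue, pharyngeal or other, in the levels of the 7 genes was not tested.

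Other genes of the second heart field, 30 listed with earlier results of these data known, were read beside the 7. Of the 28 tested, 1 rose and 11 fell at E10.5 against E9.5, 3 rose and 7 fell at E12.5 against E10.5, 2 rose and 6 fell at E14.5 against E12.5, and 3 rose and 4 fell at E16.5 against E14.5, beside 18.2%, 38%, 14.8% and 18.9% of all genes called in either direction. At E16.5 against E9.5, 20 fell and 5 rose, with a median of -0.57 against -0.0052 over all genes, of which 32.8% fell and 32.1% rose. Mab21l2, the named gene with the lowest adjusted p there, had 1.19 ± 0.206 CPM at E16.5 and 21.0 ± 2.38 CPM at E9.5 (-4.14 ± 0.185, edgeR adjusted p = 3.74e-13), and fell in each of the last 3 steps. Wnt11, a noncanonical ligand needed for the outflow tract, had 13.8 ± 1.82 CPM at E16.5 and 53.5 ± 15.2 CPM at E9.5 (-1.95 ± 0.145, edgeR adjusted p = 7.85e-10). Wnt5a, of the same class, rose at E10.5 against E9.5 (0.51 ± 0.102, edgeR adjusted p = 0.00152) and fell at E16.5 against E14.5 (-1.04 ± 0.102, edgeR adjusted p = 1.07e-06). Sema3c, which guides cardiac neural crest into the outflow tract, fell at E14.5 against E12.5 (-1.09 ± 0.136, edgeR adjusted p = 2.42e-05), the step of Foxc2. Prdm1 fell at E10.5 against E9.5 (-1.62 ± 0.265, edgeR adjusted p = 0.000225) and rose at E14.5 against E12.5 (1.67 ± 0.268, edgeR adjusted p = 0.000258).

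Of 17 FGF receptor and feedback genes, 2 rose and 3 fell at E10.5 against E9.5 and 6 rose and 2 fell at E12.5 against E10.5, beside 18.2% and 38% of all genes called in these steps. At E16.5 against E9.5, 9 fell and 4 rose (median -0.28), beside 64.9% of all genes called. Etv4 and Etv5, ETS factor genes that FGF signalling induces, had 8.23 ± 0.528 and 26.1 ± 0.572 CPM at E16.5, against 17.9 ± 1.10 and 60.2 ± 8.48 CPM at E9.5 (edgeR adjusted p = 9.10e-09 and 4.43e-09). Spry1, a feedback inhibitor of the same pathway, went the other way, with 33.7 ± 2.56 CPM at E16.5 and 7.29 ± 0.526 CPM at E9.5 (2.21 ± 0.102, edgeR adjusted p = 6.23e-13), and rose at E10.5, E12.5 and E16.5 against the stage before each (adjusted p = 0.00133, 6.09e-06 and 3.73e-06). Etv1 and Spry2 also rose at E16.5 against E9.5 (0.92 ± 0.0968 and 0.63 ± 0.0697, edgeR adjusted p = 7.19e-08 and 1.5e-07), so the genes of the list did not move as 1. Fgfr2, a receptor of Fgf10, fell at E14.5 against E12.5 (-0.45 ± 0.113, edgeR adjusted p = 0.00970) and at E16.5 against E14.5 (-0.74 ± 0.113, edgeR adjusted p = 0.000136).

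Among the partners of Eya1, all 9 tested genes of the Eya1, Six4 and Dach1 families passed at E16.5 against E9.5, 6 lower and 3 higher (median -0.86), beside 64.9% of all genes. Six4 had 3.02 ± 0.755 CPM at E16.5 and 8.71 ± 0.457 CPM at E9.5 (edgeR adjusted p = 7.70e-08), and Dach1, a corepressor of the same network, 17.4 ± 1.70 and 42.2 ± 3.89 CPM (edgeR adjusted p = 9.19e-09). Eya2 had 0 to 8 counts in each library up to E14.5, and 0.972 ± 0.114 CPM at E16.5, against 0.163 ± 0.0441 CPM at E14.5 (2.57 ± 0.499, edgeR adjusted p = 0.00122).

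**Figure D5:**
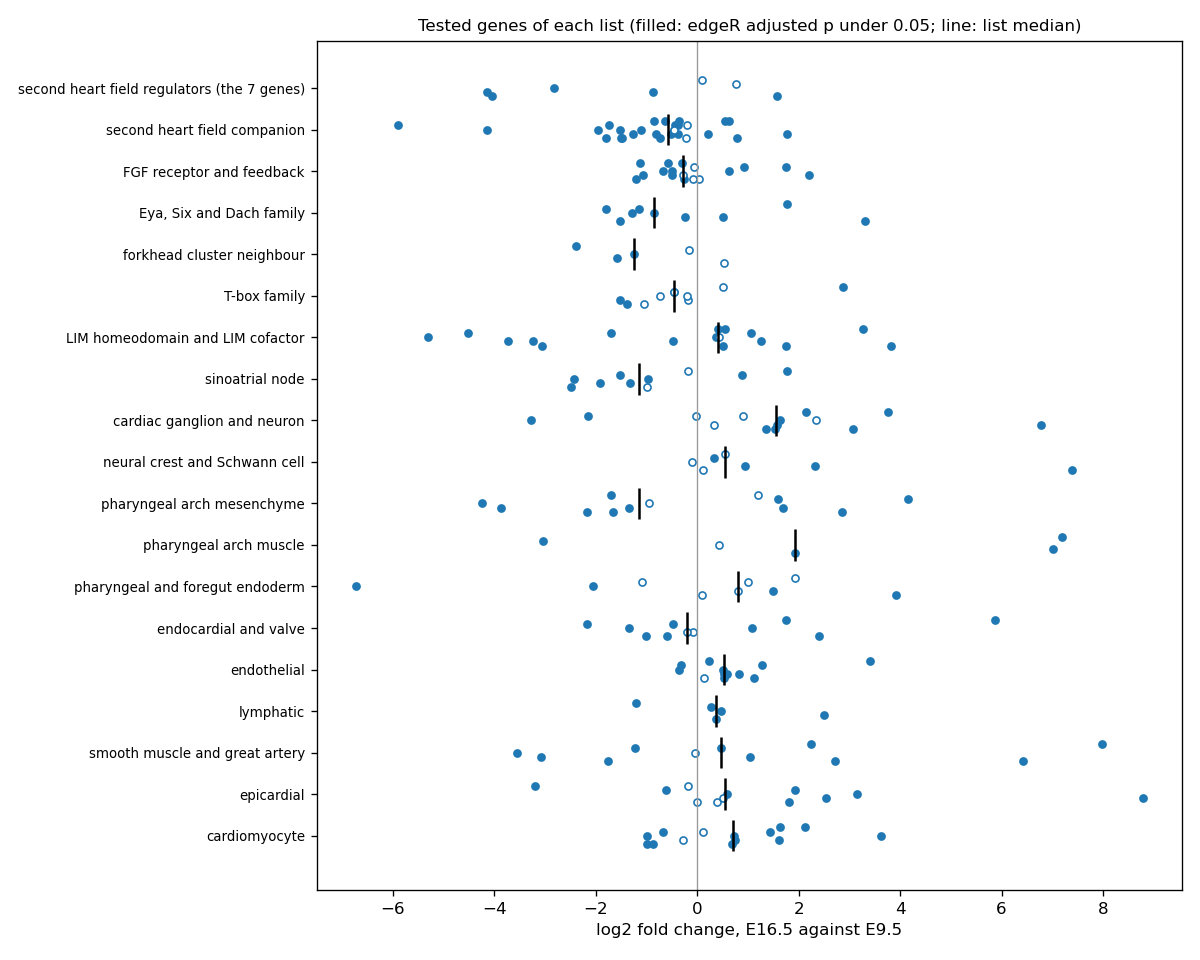
Log2 fold change of E16.5 over E9.5 for the 7 genes (top row) and for the tested genes of each list below, 1 point a gene, filled past an edgeR adjusted p of 0.05, with a black line at the median of each list. Fgf10, Fgf8 and Isl1 lie at -4.14, -4.04 and -2.82, and 20 of the 28 companion genes of the second heart field lie left of 0 with filled points.

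Genes whose profiles were most like those of the 7 over the 18 libraries were taken from protein-coding genes of at least 1 CPM, by Pearson's r of log2 CPM, as a description, since the libraries of a stage share that stage. For Fgf8 they were Nle1 (r = 0.952), Cck (0.947) and Rrp9 (0.946), of which Cck, a peptide hormone gene, had 0.814 ± 0.429 CPM at E12.5 and 41.0 ± 15.7 CPM at E9.5. Fgf10 was most like Hapln3 (0.989), Rps6ka1 (0.988) and Pgam1 (0.987), and Isl1 most like Ppp1r17 (0.966), Lacc1 (0.966) and Nufip1 (0.961). Foxc1 was nearest to Tmem176b (0.981), Bace2 (0.972) and Pde1a (0.971), and Foxc2 to Mst1 (0.958) and Tnnt3 (0.938). Tbx1 and Eya1, which had fewer counts, reached 0.870 with Fmo1, 0.847 with Galnt16 and 0.846 with Bnip1, and 0.869 with Vipr2, 0.832 with Arhgef4 and 0.824 with Ago1. Among the 7 themselves, r was 0.919 for Fgf10 with Isl1, 0.83 for Fgf8 with Fgf10 and -0.906 for Fgf8 with Foxc1.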

How the data were processed

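The authors deposited whole-number read counts per Ensembl gene for each of 18 libraries, not normalized. Per the submitters' processing notes, tools were STAR 2.5.2b, Trimmomatic 0.36, Subread 1.5.2 and featureCounts, and the build GRCm38 and mm10; strand setting and annotation release: not given in the sources used here. Symbols, coordinates and exon lengths came from GENCODE M21, which held 49056 of the 49315 identifiers. Tests across genes used edgeR 4.0.16 in R 4.3.3 (filterByExpr by stage, TMM, robust quasi-likelihood fit with stage as the only term, all 18 libraries). Replicate libraries differed by more than sampling noise in all 24 pairs (chi-square per degree of freedom 6.06 to 79.8). RPKM used the union of exons, and Pearson's r used log2 CPM with a prior count of 2. The 7 genes and all lists were chosen with earlier results of these data known. Named are the 7 genes, the neighbours of the forkhead genes, up to 3 genes of smallest p per list and comparison without overlap of libraries, and the 3 genes of highest r for each of the 7, and a few genes that this rule names are not reported here. The marker genes Shox2, Hcn4, Myf5, Myod1, Afp, Epcam, Foxa2, Pax1, Gcm2, Gsc and Th were named after their values were seen. The alternatives, up to 29 for a comparison, include DESeq2 1.42.0, limma-voom (limma 3.58.1), other scalings and filters, and each library left out. The fit was tested on simulated counts. With 1 to 3 counts a level is set by counting error.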

Additional observations from a re-analysis of the deposited data

How the results depend on the processing

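Over up to 29 alternatives, Fgf10 in the first 2 steps, Fgf8 at E12.5 against E10.5, Foxc1 in the first 2 steps, Foxc2 at E14.5 against E12.5, and Fgf8, Fgf10, Isl1, Foxc1 and Foxc2 at E16.5 against E9.5 kept their direction and their call in every alternative that gave a value. The 5 libraries alone gave values for the first 2 steps, and Fgf8 left the filter at E14.5 against E12.5 when those 2 stages were fitted alone. The fall of Isl1 did not pass in 10 of 29 alternatives at E10.5 against E9.5 and in 9 of 29 at E12.5 against E10.5, and that of Tbx1 in 6 of 29 at E10.5 against E9.5.

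At E10.5 against E9.5, 3446 genes passed, 1215 without the 5 libraries and 6460 within them (more genes with fewer libraries, the cause was not tested), and 2260 to 3839 with a library left out, the lowest without E9.5 replicate 3. Of the 7 genes, 5 passed, 2 without the 5 libraries and 3 to 5 with a library left out, with 3 without E9.5 replicate 3, E10.5 replicate 2 or E10.5 replicate 4. At E14.5 against E12.5 the 2803 genes became 1771 to 3425 with a library left out, the lowest without E14.5 replicate 3. At E16.5 against E14.5 the 3562 genes became 2058 to 4210, with 2058 without E14.5 replicate 1 and 2225 without replicate 2, and the count among the 7 was 2, 1 to 3 with a library left out and 5 with library totals only. That scaling shifts the median of all genes by -0.15 there and moves the share of higher among called genes to 24.4%, against 53.6% with TMM, and at E14.5 against E12.5 to 62.5%, against 42.3% with TMM.

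Signs turned only among values that had not passed. Foxc2 at E10.5 against E9.5 was 0.037 without the 5 libraries, and Tbx1 at E12.5 against E10.5 was -0.62 within them, with only replicate 4 at E12.5. Eya1 at E14.5 against E12.5 was 0.050 with library totals only, 0.015 with the replicate block, 0.048, 0.0070 and 0.015 without E12.5 replicates 3 and 4 and E14.5 replicate 2, 0.0060 without the 5 libraries and 0.012 with a term for them. Fgf8 at E16.5 against E14.5 was -0.046 with library totals only and -0.20, -0.23, -0.14 and -0.098 without E14.5 replicates 1 and 2 and E16.5 replicates 2 and 4. Eya1 at E16.5 against E9.5 was -0.076 without E9.5 replicate 1. With a library left out, Eya1 at E14.5 against E12.5 ranged from -0.13 to 0.048, Fgf8 at E16.5 against E14.5 from -0.23 to 0.85 and Eya1 at E16.5 against E9.5 from -0.076 to 0.22. Their cause was not tested.

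Deviations of samples with the same replicate number correlated from -0.639 to 0.498, with no common sign. The split into 5 and 13 libraries may enter these values, so they cannot show whether the numbers pair the samples. With the replicate number as a block, 3286, 7060, 2415, 3105 and 11927 genes passed in the 5 comparisons and 4, 3, 1, 3 and 6 of the 7. The Isl1 falls of the first 2 steps did not pass (-0.65 and -0.57, adjusted p = 0.0741 and 0.0544), Tbx1 rose at E16.5 against E14.5 (1.02, adjusted p = 0.0372) and against E9.5 (0.97, adjusted p = 0.0154), and no other call of the 7 changed. Counts were lowest for Fgf8 from E12.5 on and Tbx1 at E10.5, with 5 to 20 and 8 to 17 a library. The spread of Fgf8 between libraries at E14.5 and E16.5 (CV 76.6% and 46.6%) was above that of counting (28.9% and 30.5%).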

Other observations

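Families related to the 7 genes were counted beside the 64.9% of all genes called at E16.5 against E9.5 (32.8% lower and 32.1% higher). Of 17 LIM homeodomain and LIM cofactor genes tested, relatives and partners of Isl1, 9 rose and 7 fell at E16.5 against E9.5 (median 0.42). Lhx9, a LIM homeodomain factor gene, had 1.75 ± 0.383 CPM at E12.5 and 11.7 ± 0.873 CPM at E10.5 (-2.74 ± 0.212, edgeR adjusted p = 9.17e-09). Lmx1a had 0.559 ± 0.424 CPM at E14.5 and 24.0 ± 14.3 CPM at E12.5 (-5.36 ± 0.626, edgeR adjusted p = 4.62e-05), with E12.5 libraries from 13.2 to 44.9 CPM and E14.5 libraries from 0.125 to 0.972 CPM. Lhx6 had 6.54 ± 0.640 CPM at E16.5 and 0.674 ± 0.234 CPM at E9.5 (edgeR adjusted p = 6.32e-08), and the cofactor gene Ldb2 19.98 ± 1.77 and 5.97 ± 0.494 CPM (edgeR adjusted p = 8.71e-11).

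Of 10 T-box genes tested besides Tbx1, 3 fell and 1 rose at E16.5 against E9.5, a smaller share than that of all genes. Tbx2, a repressor of chamber muscle genes, had 24.6 ± 2.12 CPM at E16.5 and 64.0 ± 16.1 CPM at E9.5 (-1.38 ± 0.157, edgeR adjusted p = 4.27e-07), and rose at E16.5 against E14.5 (0.49 ± 0.162, edgeR adjusted p = 0.0433). Tbx6 had 1.67 ± 0.943 CPM at E12.5 and 0.334 ± 0.0895 CPM at E10.5 (2.30 ± 0.402, edgeR adjusted p = 0.000159). Of 14 genes of cardiac ganglia and neurons tested, 8 rose and 2 fell at E16.5 against E9.5 (median 1.55), a share near that of all genes called. Dbh, the enzyme that makes noradrenaline, had 2.07 ± 0.469 CPM at E16.5 and 0.150 ± 0.0538 CPM at E9.5 (3.76 ± 0.40, edgeR adjusted p = 8.86e-08). Th, another gene of the list, went the other way (-2.145 ± 0.467, edgeR adjusted p = 0.000489). Hand1, listed there for sympathetic precursors and also expressed in heart muscle, had 8.34 ± 0.942 CPM at E16.5 and 81.2 ± 13.7 CPM at E9.5 (-3.28 ± 0.134, edgeR adjusted p = 1.37e-13), and it fell in all 4 steps.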
